A study of Drosophila melanogaster with 6 samples.

Results

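Gene expression and exon use were compared between indirect flight muscle (IFM) and brain of wild-type Drosophila pupae. The members are the libraries labelled IFM and brain, 4 of the 6 libraries of the series, with 2 libraries in each tissue. The other 2 libraries come from whole leg and entered only where stated. Every library was made from dissected tissue of w[1118] flies, which carry a mutation in the eye pigment gene white, raised at 27 °C and staged to 72 h after puparium formation (APF). RNA with a poly(A) tail was selected and sequenced. The study's methods call the replicates biological. How many animals each library holds is not given in the sources used here, and the p-values cover only the spread between these 4 libraries.

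IFM is the fibrillar muscle that powers the wings. Its contraction is activated by stretch as well as by calcium, and it is packed with mitochondria that supply ATP for flight. At this pupal stage its myofibrils and sarcomeres are maturing, while neurons of the pupal brain are building and refining synapses. Both tissues are known for alternative splicing, by which 1 gene gives several mRNAs, and many sarcomere proteins have isoforms particular to a muscle type.

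Exon bins, the non-overlapping pieces into which annotated exons of a gene are divided, were counted in each library. They held 96107400 and 177962156 counts in the IFM libraries and 71771734 and 67088459 in the brain libraries, in the order of the columns of the table. These columns are not tied to the replicate numbers of the labels. The Spearman correlation of gene counts across genes was 0.970 between the IFM libraries, 0.991 between the brain libraries and between 0.670 and 0.747 across tissues. Gene levels are given as CPM, counts scaled to the size of the library after TMM normalisation. The 10 genes with most counts took 31.9 and 32.6% of the counts in IFM against 6.46 and 6.32% in brain. The labels name a different sequencing provider for IFM than for brain, whereas the study's methods name the same provider for all libraries. If the labels hold, provider and tissue cannot be told apart. Fewer cells of a type and less RNA per cell cannot be told apart in such bulk samples either.

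The libraries carried the marker genes of their labels. All 7 flight muscle markers were higher in IFM, and their summed level was 218997 and 342775 CPM in IFM against 11012 and 8861 CPM in brain. All 7 neuron markers, 9 glia markers and 14 photoreceptor markers were higher in brain. The neuron markers summed to 294 and 288 CPM in IFM and to 9236 and 6863 CPM in brain, and none was at 0 in IFM. Photoreceptor markers, such as ninaE, which encodes the main rhodopsin, summed to 3489 and 4452 CPM in brain, so photoreceptor transcripts were present in the libraries labelled brain. Fat body and blood cell markers were mixed, with 4 of 9 higher in IFM and 1 higher in brain (4 and 3 with total counts as the only scaling), and the larval serum protein Lsp2 had 619 and 529 CPM in IFM against 66.5 and 45.7 CPM in brain. Of 10 markers of epidermis and trachea, 5 were higher in IFM and 3 in brain, with sums of 781 and 812 CPM against 803 and 659 CPM. These shares stand beside 34.0 and 31.9% of all genes tested. The 5 became 3 without the first IFM library or the first brain library and 2 without the second brain library, and with total counts as the only scaling 0 were higher in IFM and 8 in brain. The part of these other cell types in the results was not tested.

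The tissues differed in most genes. Of 12200 genes tested with the quasi-likelihood test of edgeR at a Benjamini-Hochberg adjusted p of 0.05, 4144 (34.0%) were higher in IFM and 3897 (31.9%) were higher in brain, 65.9% in all. In 86.2% of the genes both values of one tissue lay above both values of the other. A test against a 2-fold change called 3181 genes higher in IFM and 2465 higher in brain. The scaling sets where zero lies. With total counts as the only scaling the median log2 fold change of all genes moved by 1.39, from 0.02 to -1.37, and the calls became 2461 and 6954, so that genes higher in IFM made up 26.1% of the calls instead of 51.5%. All fold changes are therefore relative to the bulk of genes, as log2 of IFM over brain ± SE with n = 2 libraries in each tissue, and directions that depend on the scaling are named.

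Of the 10 genes furthest apart in each direction, those higher in IFM included several of flight muscle proteins, and 7 of those higher in brain had no name. Among genes with a mean of at least 50 CPM, the largest difference was that of mt:ND2, a complex I subunit encoded in the mitochondrial genome, with 178 and 136 CPM in IFM and 0.440 and 0.126 CPM in brain (9.11 ± 0.56, adjusted p = 8.99e-06). TpnC4, the troponin C of stretch activation (2R:5503437-5507866 in BDGP6 coordinates), followed with 7950.1 and 9709.9 CPM against 57.0 and 12.4 CPM (7.99 ± 0.92, adjusted p = 1.56e-04). The libraries of the tissues did not overlap in either gene, which the rule required for each of the 10 genes. Act88F, the actin of flight muscle (3R:15439969-15442177), had 48421 and 76975 CPM against 405 and 212 CPM (7.67 ± 1.003), a 203-fold difference. The flightin gene fln, whose product binds the thick filament, had 18479.5 and 21703 CPM in IFM and 154 and 47.6 CPM in brain (7.64 ± 0.89), but 96.3% of its counts lie in bins that overlap the antisense gene asRNA:CR45161. That gene has all of its counts in the overlap, at 17614 and 20287 CPM in IFM (7.75 on the log2 scale). In the deposited gene signal the authors' mean over the 4 libraries was 692 for asRNA:CR45161 and 350785 for fln, so the bin counts of the antisense gene are not read as its own. The glutathione S-transferase GstS1, known to be bound to the flight muscle thin filament, differed by 7.53 ± 0.89 with 25175 and 39306 CPM against 243 and 106 CPM. Strn-Mlck (7.31), which encodes the giant muscle protein stretchin, TTLL4B (7.30), a member of the tubulin tyrosine ligase-like family, and SmydA-3 (7.29), which carries SET and MYND domains, completed the group. The remaining member, S-Lap4, is a leucyl aminopeptidase known from sperm and had 194 and 71.7 CPM in IFM against 1.20 and 0.468 CPM in brain.

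In brain the same rule led to CG5172, with 1.20 and 0.848 CPM in IFM and 211 and 160.2 CPM in brain (-7.52 ± 0.33, adjusted p = 6.84e-06). CG31706 (-6.58), CG4409 (-6.28), CG1545 (-6.01), CG30158 (-6.00), CG11000 (-5.95, with 66.5% of its counts in overlapping bins) and CG30172 (-5.85) were further genes without a name. The odorant-binding protein gene Obp44a held the most counts of any gene in the second brain library and had 4772 and 6733 CPM in brain against 79.9 and 80.0 CPM in IFM (-6.17 ± 0.49), with 71.4% of its counts in bins shared with another gene. The neuropeptide gene sNPF had 2.65 and 2.73 CPM in IFM and 174 and 159 CPM in brain (-5.95 ± 0.24). 7B2, which encodes a chaperone of the enzyme that matures neuropeptide precursors, had 4.35 and 4.68 CPM and 237 and 308 CPM (-5.91 ± 0.28). Values of the tissues did not overlap in any of these 10 genes, which the rule required.

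**Figure D1:**
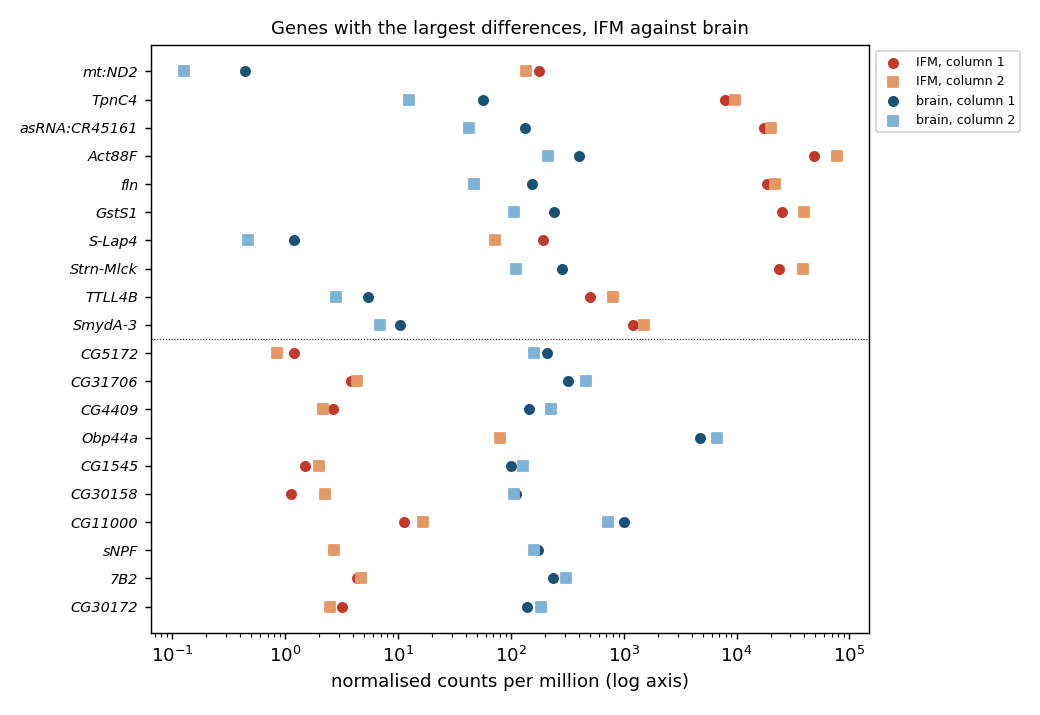
Expression of the 20 genes with the largest differences, in CPM after TMM scaling on a log axis, with 1 point for each of the 2 IFM and 2 brain libraries. The points of the tissues do not overlap for any gene, which the choice of genes required. Act88F reaches from 212 CPM in brain to 76975 CPM in IFM.

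Genes of the thick filament and of the elastic connecting filament all differed in the same direction. All 10 genes of this list were higher in IFM, against 34.0% of all genes, with a median of 4.35 against 0.02 for all genes. Muscle myosin heavy chain, Mhc, had 116667 and 199162 CPM in IFM and 5637 and 3970.5 CPM in brain, which did not overlap (5.04 ± 1.098, adjusted p = 0.00432). Its call was lost without the first brain library (adjusted p = 0.0786) and without the second (adjusted p = 0.0987). Mlc2, the regulatory light chain, stood at 53015 and 66134 CPM against 2334 and 2604 CPM (4.59 ± 0.81). Unc-89, the obscurin of the M-band, differed by 6.21 ± 0.81 and bt, the projectin gene of the connecting filament, by 3.89 ± 0.70. Prm, which encodes the paramyosin core of thick filaments, showed the smallest difference of the list, 1.83 ± 0.39, with 3348 and 4425 CPM against 1172 and 1017 CPM.

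Thin filament genes went both ways. Of 13 tested, 8 were higher in IFM and 4 in brain (median 2.97), against 34.0 and 31.9% of all genes. Besides Act88F and TpnC4, the troponin T gene up had 20977 and 27199 CPM in IFM and 3035 and 3115 CPM in brain (2.97 ± 0.60), wupA, which encodes troponin I, 14379 and 18824 CPM and 1502 and 1495 CPM (3.47 ± 0.56), and the tropomyosin gene Tm1 14706 and 19475 CPM and 1898 and 2258 CPM (3.04 ± 0.56). The tissues did not overlap in these genes, as in 86.2% of all genes, and the brain libraries were not free of their mRNA. The 4 genes higher in brain, named after their values were seen, were Act87E, a muscle actin with 132 and 168 CPM in IFM against 1521 and 1874 CPM in brain (-3.50 ± 0.34), and the troponin C genes TpnC47D (-4.89 ± 0.27), TpnC73F (-3.98 ± 0.26) and TpnC25D (-3.98 ± 0.27). TpnC73F and TpnC47D are known from larval and tubular muscles. Among the 3 markers of leg or tubular muscle, Act79B (4.12 ± 0.38) and TpnC41C (2.10 ± 0.34) were higher in IFM.

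Of 12 Z-disc genes, 6 were higher in IFM and 4 in brain (median 1.12), and with total counts 6 and 6. Of all genes 34.0 and 31.9% were. Zasp52, which encodes an Enigma family PDZ-LIM protein of the Z-disc, had 9877 and 17789.8 CPM in IFM and 349 and 272 CPM in brain (5.48 ± 0.63). The muscle LIM protein gene Mlp60A differed by 3.48 ± 0.46, Zasp66 by 2.52 ± 0.34 and CG1674 by 4.41 ± 0.44. Mp20, which encodes a calponin-related protein known from muscles other than IFM, was the lowest member, with 15.4 and 19.8 CPM in IFM and 400.4 and 572 CPM in brain (-4.79 ± 0.32). It was named after its values were seen.

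Genes for calcium release and uptake gave 5 of 11 higher in IFM and 3 higher in brain (median 0.19), and with total counts 5 and 6. Of all genes 34.0 and 31.9% were, so the counts of this small list say little about it as a whole. RyR, the ryanodine receptor that lets calcium out of the sarcoplasmic reticulum, had 5171 and 9835 CPM in IFM and 285 and 163 CPM in brain (5.07 ± 0.60). The calcium pump gene SERCA (2.47 ± 0.46), Amph (2.37 ± 0.36), which encodes the amphiphysin of T-tubules, and the L-type channel gene Ca-alpha1D (2.54 ± 0.39) were higher as well. In the other direction the calcium channel subunit stj had 23.6 and 23.7 CPM against 476 and 344 CPM (-4.11 ± 0.28), and Itpr, the IP3 receptor gene, and the exchanger gene Calx differed by -2.05 ± 0.25 and -1.41 ± 0.26.

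Most listed genes of energy metabolism had higher mRNA levels in IFM. Of 73 nuclear genes of oxidative phosphorylation, 71 were higher in IFM, against 34.0% of all genes, with a median of 3.53. The list was filled partly by gene name and includes low-level second copies such as ATPsynbetaL. ATPsynbeta, a catalytic subunit gene of ATP synthase, had 20618 and 27537 CPM in IFM and 1439 and 1569 CPM in brain (4.001 ± 0.63), and blw, the gene of the alpha subunit, 17532 and 29621 CPM and 966 and 920.2 CPM (4.64 ± 0.66). The libraries of the tissues lay apart by more than 10 times in both. Cyt-c-p, cytochrome c, and UQCR-C1, of complex III, differed by 3.47 ± 0.47 and 3.80 ± 0.45. COX7A, a cytochrome oxidase subunit gene named here after its values were seen, was the only member higher in brain, with 28.9 and 29.9 CPM in IFM and 149 and 174 CPM in brain (-2.46 ± 0.21, adjusted p = 3.81e-05).

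All 12 citric acid cycle and pyruvate dehydrogenase genes tested were higher in IFM (median 4.10), against 34.0% of all genes. Aconitase, mAcon1, had 11038 and 18084 CPM against 474 and 454 CPM (4.97 ± 0.60), and kdn, the gene of citrate synthase, 10242 and 17866 CPM against 473 and 395 CPM (5.02 ± 0.61). Of 19 genes of glycolysis, the glycerophosphate shuttle and arginine phosphate, 18 were higher (median 3.48). Among them were the aldolase gene Ald1 (4.73 ± 0.59), Gapdh1 (4.72 ± 0.49) and the mitochondrial glycerophosphate oxidase gene Gpo1 (4.83 ± 0.49). Ldh, lactate dehydrogenase, did not pass, with 19.1 and 4.26 CPM in IFM and 5.47 and 7.36 CPM in brain. Mitochondrial carriers gave 5 of 7 higher in IFM and 2 higher in brain, against 34.0 and 31.9% of all genes. The phosphate carrier genes differed in direction, with 2634 and 3639 CPM against 94.6 and 99.0 CPM for Mpcp1 (5.02 ± 0.41) and 138 and 174 CPM against 542 and 666 CPM for Mpcp2 (-1.95 ± 0.27). porin, the channel of the outer membrane, was higher in IFM by 2.30 ± 0.41.

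Of 23 mitochondrial genome transcripts tested, 21 were higher in IFM (median 4.85), against 34.0% of all genes. The IFM libraries differed widely here, with 177480 and 61032 CPM in sum against 6855 and 7111 CPM in brain. mt:CoI, cytochrome oxidase subunit I, had 91881 and 35167 CPM in IFM and 4216 and 4373 CPM in brain (3.89 ± 0.88), and mt:Cyt-b 40456 and 8466 CPM and 1564 and 1584 CPM (3.96 ± 0.87). Without the first or the second brain library the calls were lost for mt:CoI (adjusted p = 0.0786 and 0.0799) and mt:Cyt-b (adjusted p = 0.0588 and 0.0617). The number of calls was between 17 and 22 with any 1 library left out. All 70 mitochondrial ribosomal protein genes tested were higher in IFM, each by between 1.92 and 4.48 on the log2 scale (median 2.94). An example is mRpS5 with 595 and 521 CPM against 101 and 97.7 CPM (2.49 ± 0.25).

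Genes of cytoplasmic ribosomal proteins showed smaller differences, with 67 of 78 higher in IFM, against 34.0% of all genes, and a median of 1.29. This direction depends on the scaling. With total counts the median was -0.09, with 7 members higher in IFM and 9 in brain, and without the first brain library 40 were higher in IFM. RpL41 had 3907 and 3064 CPM in IFM and 803 and 1028 CPM in brain (1.93 ± 0.38), RpS3A 1884 and 1833 CPM and 545 and 707 CPM (1.57 ± 0.33), and RpL5 did not pass at 0.55 ± 0.33. RpL41 and RpS3A did not pass with total counts. The list was filled by gene name and includes low-level second copies such as RpL22-like and RpL10Aa.

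**Figure D2:**
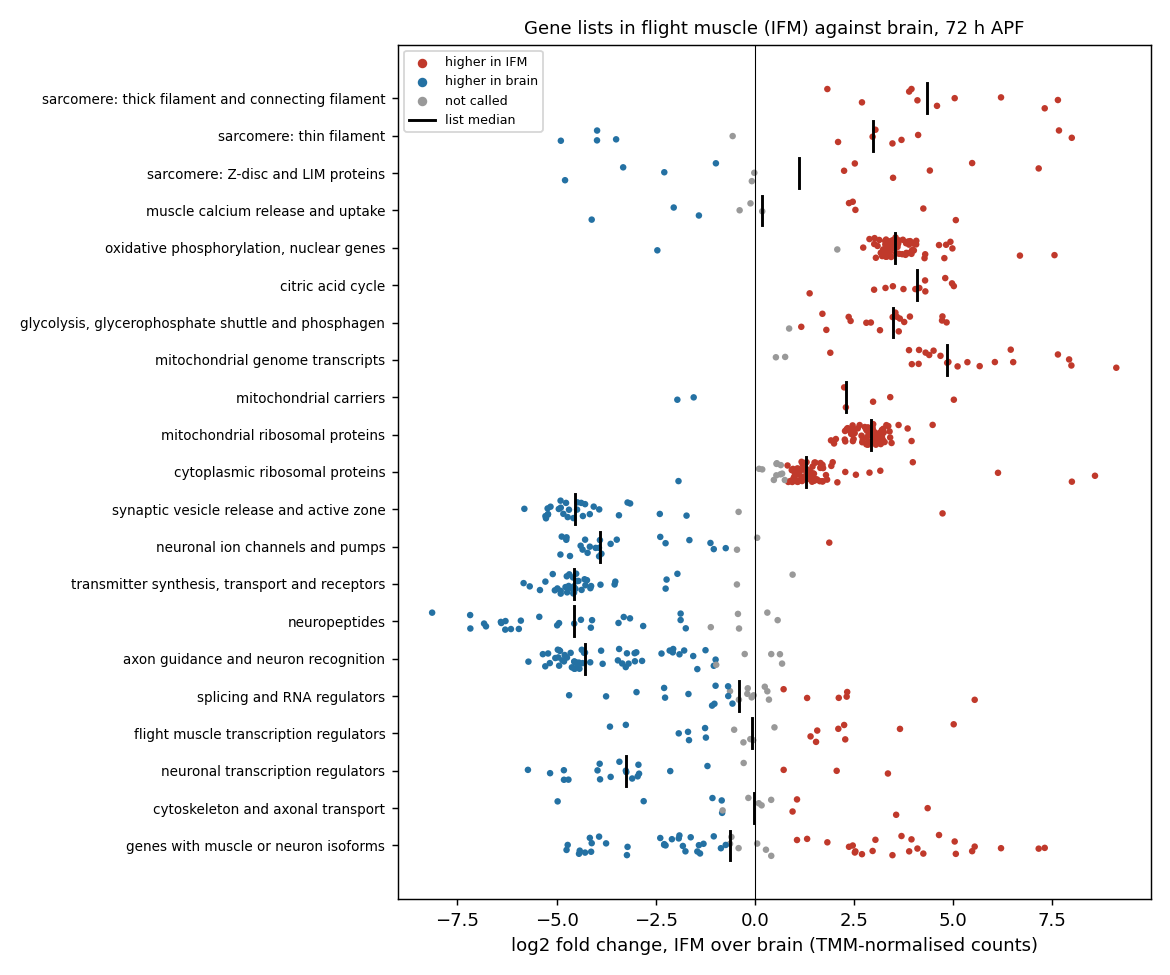
Log2 fold change of IFM over brain for every tested gene of each list, 1 point a gene, coloured by the call and with a black bar at the list median. Sarcomere, respiratory and mitochondrial lists lie to the right, with medians up to 4.85 for mitochondrial genome transcripts, and neuronal lists to the left, with medians down to -4.56.

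Genes of synaptic release were higher in brain in 28 of 30 cases, against 31.9% of all genes, with a median of -4.53. cpx, complexin, which clamps vesicle fusion, had 91.3 and 83.0 CPM in IFM and 2819.7 and 2134 CPM in brain (-4.83 ± 0.38, adjusted p = 2.62e-05). The calcium sensor gene Syt1 had 71.7 and 63.4 CPM and 1874 and 1351 CPM (-4.58 ± 0.36), Sap47, which encodes a synapse-associated protein, 119 and 103.6 CPM and 2087 and 1624 CPM (-4.06 ± 0.35), and unc-13, the vesicle priming factor gene, 152 and 134 CPM and 1619 and 1029.5 CPM (-3.21 ± 0.35). No library of one tissue overlapped the other in these genes, as in 86.2% of all genes. The exception, named after its values were seen, was the neuroligin gene Nlg1, with 117 and 147 CPM in IFM and 6.19 and 3.72 CPM in brain (4.73 ± 0.32). Neuroligins are adhesion proteins of synapses, and Nlg1 is known in Drosophila from the muscle side of the neuromuscular junction.

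Ion channels and pumps gave 23 of 26 higher in brain (median -3.92), against 31.9% of all genes. Atpalpha, the catalytic subunit gene of the sodium pump, had the most counts of any gene in the first brain library, with 7254 and 5789 CPM against 1075 and 1422 CPM in IFM (-2.39 ± 0.44). The chloride cotransporter gene kcc had 3973 and 3354 CPM in brain and 129 and 144 CPM in IFM (-4.75 ± 0.40), and the pump subunits nrv3 and nrv2 differed by -4.34 ± 0.38 and -3.48 ± 0.32. nrv1, the third subunit gene of this family, went the other way (1.88 ± 0.21, 139.9 and 167 CPM in IFM against 42.4 and 41.3 CPM in brain). The potassium channel gene Sh had 455 and 414 CPM in IFM and 517 and 317 CPM in brain (0.06 ± 0.30, adjusted p = 0.876). Both nrv1 and Sh were named after their values were seen.

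Of 38 genes for transmitter synthesis, transport and receptors, 36 were higher in brain and none in IFM (median -4.56). Of all genes 31.9% were higher in brain and 34.0% in IFM. Gad1, which makes GABA, had 29.4 and 35.3 CPM in IFM and 1099.7 and 1033 CPM in brain (-5.04 ± 0.32), and the GABA receptor gene Rdl 38.6 and 32.6 CPM and 763 and 481 CPM (-4.13 ± 0.33). Nicotinic receptor genes nAChRbeta1 and nAChRalpha7 differed by -4.52 ± 0.32 and -3.89 ± 0.31. Neuropeptide genes gave 26 of 31 higher in brain (median -4.56). Nplp1 had 199.8 and 193 CPM in brain against 12.1 and 10.8 CPM in IFM (-4.10 ± 0.23), Dh31, a diuretic hormone, 125 and 108 CPM against 6.07 and 3.87 CPM (-4.56 ± 0.29) and ITP, the ion transport peptide, 76.0 and 71.9 CPM against 19.1 and 21.3 CPM (-1.87 ± 0.19).

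Axon guidance and neuron recognition genes were higher in brain in 55 of 60 cases and in none higher in IFM (median -4.29). Of all genes 31.9% were higher in brain and 34.0% in IFM. The immunoglobulin superfamily gene tutl had 38.3 and 41.6 CPM in IFM and 963 and 682 CPM in brain (-4.36 ± 0.32), CadN, N-cadherin, 53.7 and 48.7 CPM and 686 and 436 CPM (-3.45 ± 0.31), and Dscam1 49.7 and 65.1 CPM and 641 and 433 CPM (-3.23 ± 0.31). Nrg, the neuroglian gene, had 379.7 and 499.7 CPM in IFM and 363 and 297 CPM in brain and did not pass (0.41 ± 0.27, turning to -0.99 with total counts).

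Of 20 transcription regulators of flight muscle, 8 were higher in IFM and 7 in brain (median -0.08), which is near the 34.0 and 31.9% of all genes. With total counts 5 and 10 were. The spalt gene salm, which selects the fibrillar muscle fate, had 204 and 326 CPM in IFM and 9.10 and 7.31 CPM in brain (5.01 ± 0.33, adjusted p = 1.09e-05), and its relative salr 79.7 and 83.0 CPM and 16.6 and 17.5 CPM (2.25 ± 0.19). vg, vestigial, had 48.7 and 50.6 CPM against 4.64 and 3.22 CPM (3.66 ± 0.27), and Mef2, the myogenic factor, 355 and 504 CPM against 114 and 85.5 CPM (2.10 ± 0.29). E2f1 (2.28), Antp (1.57), zfh1 (1.54) and Cf2 (1.40) were the others higher in IFM. With total counts the calls of Antp (0.22), zfh1 (0.14) and Cf2 (0.0240) were lost, and 85.1% of the counts of Antp lie in overlapping bins. exd, the homeodomain cofactor that acts upstream of salm in flight muscle, had 64.5 and 64.4 CPM in IFM and 216 and 198 CPM in brain (-1.69 ± 0.21), and its partner hth did not pass (0.49 ± 0.25, -0.89 with total counts). tup (-3.65), ap (-3.25), ewg (-1.92), caup (-1.66) and ara (-1.26) were higher in brain, and several of them are also regulators of neurons. lms was called higher in brain too (-1.23), but all of its counts lie in bins that overlap another gene. In the deposited gene signal the authors' mean was 9.22 for lms and 222 for caup, which has a similar CPM, so the counts of lms are not read as its own. Without the first brain library 9 were higher in IFM and 4 in brain, and the calls of lms, caup and ara were lost. The call of ara was also lost without the second IFM or the second brain library, with DESeq2 (adjusted p = 0.0603) and with overlapping bins left out (adjusted p = 0.0564), and that of Antp with overlapping bins left out (adjusted p = 0.0607), without either IFM library or without the second brain library.

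Neuronal transcription regulators gave 18 of 22 higher in brain and 3 in IFM (median -3.25), against 31.9 and 34.0% of all genes. toy, a Pax6 gene of eye development, had 2.01 and 2.37 CPM in IFM and 129 and 103 CPM in brain (-5.72 ± 0.26), onecut 8.60 and 8.76 CPM and 282 and 205 CPM (-4.81 ± 0.27) and pros 26.5 and 23.5 CPM and 488 and 264 CPM (-3.91 ± 0.35). The 3 genes higher in IFM were dsx (3.36 ± 0.32, 32.4 and 24.4 CPM against 3.34 and 2.21 CPM) and fru (0.73 ± 0.25), both of the sex determination pathway, and so (2.06 ± 0.26), a homeobox gene of the eye. With total counts fru turned to -0.67, and its call was lost without the second IFM library (adjusted p = 0.135) and without the second brain library (adjusted p = 0.193).

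Splicing and RNA regulators showed 6 of 27 higher in IFM and 12 higher in brain (median -0.40), against 34.0 and 31.9% of all genes. With total counts 3 and 22 were (median -1.79). bru1, which encodes the CELF family protein that directs fibrillar splicing in flight muscle, had 1900.1 and 2154 CPM in IFM and 51.9 and 35.1 CPM in brain, a 46.6-fold difference without overlap (5.54 ± 0.40, adjusted p = 1.69e-05). Its relatives pointed in different directions, with bru2 higher in IFM (2.33 ± 0.25) and bru3 higher in brain (-4.68 ± 0.30, 10.3 and 9.01 CPM against 299 and 198 CPM). The ELAV family was split too. Rbp9 had 1204 and 1420.2 CPM in IFM and 309 and 218 CPM in brain (2.31 ± 0.33), while fne had 21.3 and 14.97 CPM and 287 and 200.4 CPM (-3.75 ± 0.30). Syp (2.12 ± 0.32) was higher in IFM but did not pass with total counts (adjusted p = 0.0518), and how (1.318 ± 0.24) and sqd (0.73 ± 0.26) were higher there as well but turned to -0.0725 and -0.66 with total counts. mbl, muscleblind, known from terminal muscle differentiation, was higher in brain, with 47.5 and 28.1 CPM in IFM and 220.0 and 149 CPM in brain (-2.29 ± 0.32). cpo (-2.98), x16 (-2.26), heph (-1.67), U2af50 (-1.08), shep (-1.02), hfp (-0.99), qkr58E-3 (-0.67) and B52 (-0.56) were also higher in brain. nito was called there at -0.67, but 50.1% of its counts lie in overlapping bins, and without these bins its difference was -0.0024 (adjusted p = 0.994). Rbfox1, whose product is an RRM splicing factor of muscle and neurons, had 141 and 185 CPM in IFM and 294 and 209 CPM in brain and did not pass (-0.63 ± 0.27, adjusted p = 0.0721), though it did without the second brain library (adjusted p = 0.0445) and with total counts (-2.02). Leaving out 1 library ended the calls of B52 in all 4 cases, of shep without either IFM or the first brain library, of sqd without either IFM or the second brain library, of nito without the first IFM or either brain library and of qkr58E-3 without the first IFM or the first brain library.

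Cytoskeletal and axonal transport genes gave 4 of 14 higher in IFM and 5 in brain, near the 34.0 and 31.9% of all genes, and with total counts 2 and 10. The 5 became 3 without the second IFM library or either brain library. Appl, the amyloid precursor protein-like gene, had 1445 and 1050.1 CPM in brain against 39.4 and 40.0 CPM in IFM (-4.97 ± 0.34). The spectraplakin gene shot passed narrowly in the other direction (1.06 ± 0.39, adjusted p = 0.0428) and turned to -0.35 with total counts. Its call was lost without the second IFM library (adjusted p = 0.235) and without the second brain library (adjusted p = 0.228). A further list held 59 tested genes with known muscle or neuron isoforms, some of which the study names from these libraries. Of these, 24 (40.7%) were higher in IFM and 29 (49.2%) in brain, against 34.0 and 31.9% of all genes. With total counts the numbers were 21 and 35.

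Exon use asks whether a bin takes a larger or smaller part of its own gene in one tissue. It was tested as the log2 difference of a bin from the rest of its gene, with counts of the 59093 bins of 9508 genes with 2 or more bins. In all, 1795 bins (3.04%) were used more in IFM and 2565 (4.34%) more in brain, and 7.38% were called. These bins lie in 1837 genes (19.3% of genes), and a gene-level Simes test called 1474 genes (15.5%). The share of a bin in the counts of its gene did not overlap between the tissues for 65.5% of bins. Leaving out 1 library gave between 785 and 1453 bins used more in IFM, the fewest without the second brain library, and between 1377 and 2091 used more in brain, the fewest without the first.

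Position along the gene was linked to the calls. The median difference rose along 5 equal parts of a gene's bins, counted from the 5′ end, from -0.35 in the first through -0.12, 0.02 and 0.13 to 0.16 in the last. Bins that belong to every annotated transcript of their gene showed the same order, -0.31, -0.10, 0.03, 0.13 and 0.20. Of 8178 bins that lie in 5′ untranslated regions, 421 were used more in IFM and 938 more in brain. Of 3168 bins in 3′ untranslated regions, 164 and 316 were called, and of 25773 coding bins, 603 and 599. What part the trend along the gene has in the calls at 5′ ends was not tested.

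The lists of muscle genes held many bins with differential use. Of 263 bins of thick and connecting filament genes, 34.2% were called, of 152 thin filament bins 37.5% and of 162 Z-disc bins 37.7%, against 7.38% of all bins. For synaptic release the share was 9.26% of 475 bins, for ion channels 11.8% of 618, for axon guidance 5.84% of 925 and for mitochondrial ribosomal proteins 3.61% of 194. Splicing regulators had a called bin in 20 of 27 genes, against 19.3% of all genes. A gene with many bins has more chances of a called bin, and of the 426 bins of this list 22.3% were called. Bin counts in muscle genes were far higher in IFM, and more counts give a call at a smaller difference, so the shares of lists at different levels are not equally sensitive.

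Named bins were those with the largest difference in each direction among called bins with a mean of at least 100 counts in each tissue. Their genes had at least 20 CPM in each tissue, and 1 bin was taken for each gene and direction. The largest difference of all was that of Mhc bin 9, a coding exon of 144 bases at 2L:16769147-16769290, which held 226 and 450 counts in IFM and 7722 and 6112 in brain. It made up 0.00298 and 0.00225% of the counts of Mhc in IFM and 1.21 and 1.38% in brain (-8.98 ± 0.61, adjusted p = 4.30e-20). The tissues did not overlap, yet a DEXSeq model fitted with DESeq2 did not call this bin (adjusted p = 0.123). Zasp66 bin 7 (3L:8630517-8630635), at a start of some transcripts, made up 0.105 and 0.0918% in IFM against 13.9 and 15.5% in brain (-7.24 ± 0.29). Bin 2 of the same gene, a different start, showed the reverse, 11.6 and 10.7% against 0.521 and 0.357% (4.67 ± 0.27). The Z-disc gene Zasp52 had its largest difference in coding bin 20, with 0.143 and 0.0808% in IFM and 7.61 and 9.56% in brain (-6.35 ± 0.58).

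Regulated bins of the troponins and tropomyosin went both ways. In up, troponin T, coding bin 4 (X:13594830-13594908, 79 bases) took 10.4 and 10.6% of the gene's counts in IFM and 0.599 and 0.182% in brain (4.77 ± 0.37), with 141750 and 288267 counts against 2065 and 631. Bin 14 of up, of only 3 bases, took 0.0438 and 0.0378% against 3.12 and 3.10% (-6.26 ± 0.36). In wupA, troponin I, coding bin 10 took 0.211 and 0.252% against 9.34 and 11.2% (-5.46 ± 0.45). Bin 32 of Tm1 (3R:15306341-15307125), a coding exon found in 1 of 18 annotated transcripts, took 11.4 and 12.8% in IFM and 0.512 and 0.176% in brain (5.22 ± 0.35). Under the DEXSeq model bin 32 of Tm1 (adjusted p = 0.193) and bin 4 of up (adjusted p = 0.241) lost their calls.

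Other muscle genes had alternative ends. In Mf, the myofilin gene of the thick filament, bin 17 (3R:15176539-15178279), which holds a last coding part with its 3′ untranslated region, took 10.8 and 10.7% in IFM and 0.284 and 0.116% in brain (5.72 ± 0.35). Mlp60A showed exchange between bin 12, with 15.8 and 16.5% against 0.794 and 0.141% (5.32 ± 0.77), and bin 6, an earlier end of the gene, with 0.122 and 0.0827% against 7.02 and 6.539% (-6.05 ± 0.71). In Mef2 the distal 3′ untranslated region, bin 1 at 2R:9913496-9915501 with 2006 bases, took 0.294 and 0.362% of the counts in IFM and 23.5 and 24.7% in brain (-6.16 ± 0.38, adjusted p = 1.38e-16). Mef2 as a whole was 4.301-fold higher in IFM, while this bin had 68 and 183 counts there against 3057 and 2352 in brain. Unc-89 bin 22 took 0.0200 and 0.0212% against 0.875 and 1.24% (-5.59 ± 0.75).

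Among genes not of the sarcomere, slo, a calcium-gated potassium channel, used bin 5 (3R:24668146-24668909), a start near the 5′ end, at 3.61 and 3.33% in IFM and 0.112 and 0.117% in brain (4.93 ± 0.37). In rdgA, which encodes a diacylglycerol kinase known from photoreceptors, the start in bin 9 took 6.81 and 7.23% and 0.435 and 0.245% (4.32 ± 0.36). CG31140 bin 13 took 8.85 and 9.57% and 0.243 and 0.135% (5.55 ± 0.32).

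**Figure D3:**
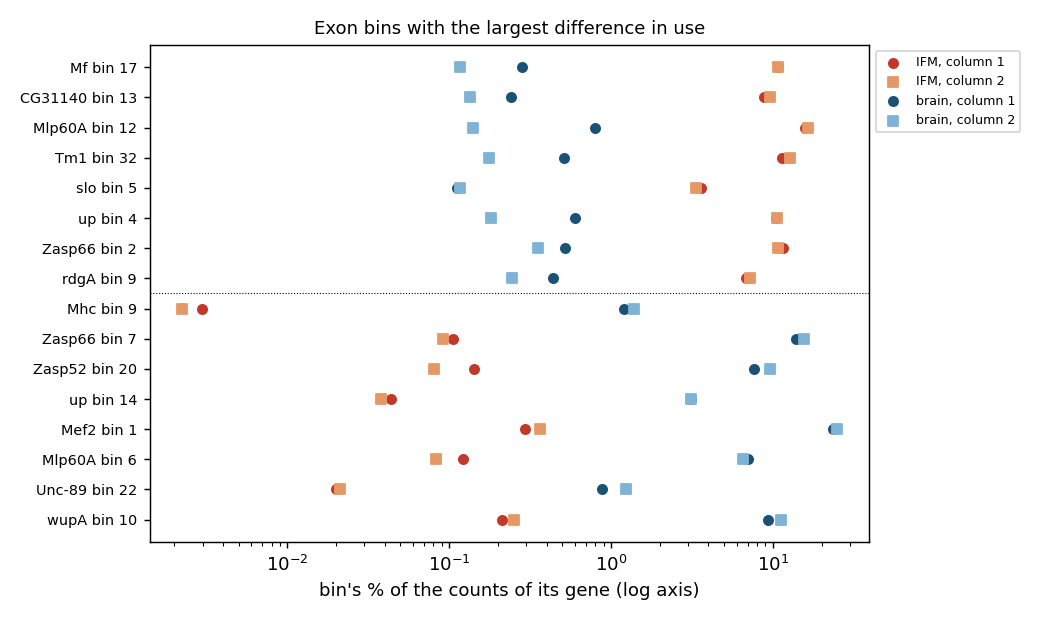
Share of the gene's counts, in percent on a log axis, of the 16 bins with the largest differences of use, with 1 point for each of the 2 IFM and 2 brain libraries. Each bin has its tissues apart, from 0.00298 and 0.00225% in IFM against 1.21 and 1.38% in brain for Mhc bin 9 to 10.8 and 10.7% against 0.284 and 0.116% for Mf bin 17.

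Mhc makes its muscle myosins from 1 gene by choosing 1 exon from each of 5 groups of alternative exons. In IFM a single bin held nearly all counts of each group. These were bin 10 of the first group (99.9 and 99.9% of the group's counts), bin 17 of the second (99.3 and 99.3%), bin 19 of the third (96.6 and 97.3%), bin 23 of the fourth (92.3 and 93.8%) and bin 31 of the fifth (99.0 and 99.1%). In brain the groups were mixed. Bin 9 had 30.4 and 37.1% of the first group, and bin 14 had 65.2 and 74.3% of the second, against 0.285 and 0.282% in IFM (-8.19 ± 0.60).

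In the third group bins 20 and 21 held 41.1 and 42.9% and 42.4 and 49.0% in brain, and bin 19 held 16.5 and 8.04%. In the fourth, bins 26 and 27 held 28.7 and 35.5% and 41.2 and 41.1%. Bin 32 held 85.2 and 91.2% of the fifth group in brain and 1.03 and 0.894% in IFM (-6.82 ± 0.58). In each of the 5 groups, the exons that lead in IFM held more in the first brain library than in the second. The first brain library also had more RNA of flight muscle genes than the second, by 1.91 times for Act88F, 3.23 times for fln and 4.59 times for TpnC4, against 0.896 times for Mlc2 and 0.974 times for up. The part of such RNA in the brain values was not tested.

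**Figure D4:**
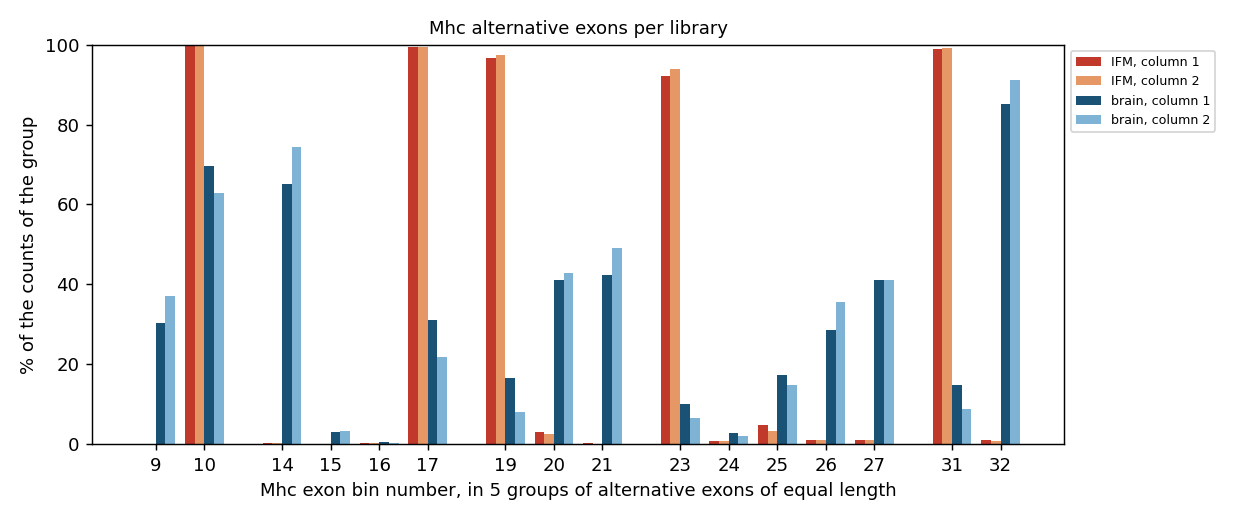
Percent of counts held by each alternative exon bin within the 5 alternative exon groups of Mhc, with 1 bar for each of the 2 IFM and 2 brain libraries. A single bin holds over 92% of each group in both IFM libraries, and bins 14 and 32 lead their groups in brain with 65.2 to 91.2%.

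Among the 59 genes with known muscle or neuron isoforms, 50 had a called bin, against 19.3% of all genes. Of their 1523 bins 24.5% were called, against 7.38% of all bins. A gene with many bins has more chances of a called bin. The genes were listed for known isoforms, so these shares are a description and not a test. The most called bins were in dlg1, the discs large scaffold gene of synapses and junctions, with 25 of 41. Expression of dlg1 did not differ (383 and 510.3 CPM in IFM and 424 and 311 CPM in brain, 0.28 ± 0.29, adjusted p = 0.415), yet 13 of its bins were used more in IFM and 12 more in brain. Coding bin 33 of dlg1 took 0.185 and 0.211% in IFM against 2.34 and 2.39% in brain (-3.55 ± 0.29), and bin 16, which ends a short form, took 3.70 and 3.31% against 0.174 and 0.289% (3.96 ± 0.27). The last 3′ untranslated bin of dlg1, bin 41, took 1.43 and 1.17% against 8.19 and 7.31% (-2.60 ± 0.24).

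Strn-Mlck had 21 called bins of 40, all used more in brain, bt had 1 used more in IFM and 16 more in brain of 49, and shot had 3 and 16 of 44. Tm1 had 8 and 10 of 36, and Zasp52 had 5 and 12 of 28. In Strn-Mlck the long coding bin 34 (2R:15969076-15984006) took 1.67 and 1.85% of the counts in IFM and 9.67 and 10.9% in brain (-2.49 ± 0.60), and this bin had 26041 and 71785 counts in IFM against 3112 and 1345 in brain.

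The splicing regulator bru1 was itself used differently, in 13 of 23 bins. Its 5′ untranslated bin 11 took 6.30 and 6.31% of the counts in IFM and 0.815 and 0.154% in brain (3.51 ± 0.55), while bin 5, which holds another start, took 2.71 and 2.33% and 12.1 and 11.3% (-2.23 ± 0.46). At the 3′ end of bru1, bin 24 at 2L:12312796-12313438 took 0.854 and 0.499% in IFM and 9.13 and 10.3% in brain (-3.84 ± 0.50). The values of the tissues were separate in each of these bins, as in 65.5% of all bins.

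The fortuna counts add splice junctions that the annotation lacks. Such an unannotated event is a pair of splice positions, read as an exon skip, an alternative acceptor or donor, or another type. Events were counted in reads of both ends, with 1798695 and 3507067 reads in the IFM libraries with replicate numbers 1 and 2 and 794567 and 608528 in brain. Of 14059 events that reached 50 reads in the sum of the 4 libraries, 5455 (38.8%) were higher in IFM and 4591 (32.7%) in brain, 71.5% together. With total event reads as the only scaling 3907 were higher in IFM and 5884 in brain. Relative to the expression of their gene, which entered as an offset, 2073 of 12572 events (16.5%) were higher in IFM and 2101 (16.7%) in brain, 33.2% together. The balance moved with the minimum of reads, from 3576 and 2065 at 10 reads to 661 and 1785 at 150 reads. These locus-relative counts rest on both IFM libraries, since without replicate 1 of IFM 420 and 496 events were called and without replicate 2 the numbers were 292 and 469.

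Events with at least 150 reads in a tissue numbered 3525 in IFM, in 900 genes, and 1590 in brain, in 705 genes. The 425 found in both are 12.1% of the IFM events and 26.7% of the brain events. Of the IFM events, 419 had no read in brain, and of the brain events, 91 had none in IFM. Mhc had 131 such events in IFM, with 12.1% of all event reads there, followed by Unc-89 with 89 and bt with 84. In brain kcc led with 30 events, and slo had 21 and Mhc 17. The minimum of 150 was set on raw reads. The IFM libraries held 1798695 and 3507067 event reads against 794567 and 608528 in brain, so these numbers are not corrected for depth. What part depth has in them was not tested. With a minimum scaled to depth, the paper reported a larger share of events specific to brain than to IFM among IFM, leg and brain.

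The 5 events with the largest fitted locus-relative differences higher in IFM, 1 for each gene, were skips in muscle genes. An exon skip in Mhc that joins 2L:16769290 and 16774450 had 18618 and 41130 reads in IFM and 0 in both brain libraries. It was at least 9304-fold higher in IFM and at least 283-fold higher relative to the locus, both against a floor of 3 reads over the brain group. A skip in wupA (X:18106548-18109470) had 9782 and 17397 reads against 0 and 0, at least 4232-fold and, over the locus, at least 382-fold higher. Skips in bt (4:738988-772403, 1156 and 3273 reads), Unc-89 (1207 and 3013 reads) and Mlp60A (1288 and 2375 reads) also had no read in brain, with at least 46.5-fold, 8.90-fold and 50.95-fold over their loci. Every adjusted p for these 5 events relative to the locus lay between 0.00148 and 0.00548. In IFM the bt skip had 4429 reads beside 747 counts in its left flanking bin, and the Mhc skip had 59748 beside 676. For these skips the reads were not matched by counts of the exon at the left position, as taken up below.

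In brain, a skip in the glial glutamate transporter gene Eaat1 (2L:9338521-9339620) had 2004 and 1930 reads against 0 and 0 in IFM, at least 2807-fold and at least 424-fold over the locus. A skip in Mhc (2L:16771141-16784666) had 130 and 67 reads in brain and 0 and 1 in IFM. It was not particular to brain, since the leg libraries had 944 and 997 reads of it. Between brain and IFM the difference was 422-fold, with a 95% exact counting interval of 74.8 to 16739.4. Relative to the locus the ratio was 13863, with an interval of 2459 to 550295, which covers counting error only. A skip in Tm1 had 147 and 64 reads, one in Ca-alpha1D 170 and 59 and one in Mtpalpha, a gene of mitochondrial fatty acid oxidation, 132 and 172, and all 3 had none in IFM. Over their loci these 3 were at least 1238-fold, 947-fold and 753-fold higher in brain. The Ca-alpha1D event starts at 2L:16168557, the end of its 5′ untranslated bin 4, which made up 0.00277 and 0.00554% of the gene's counts in IFM and 0.534 and 0.452% in brain (-6.78 ± 0.69). Event and bin were counted in the same libraries, so the bin is no independent support for the event. Other Ca-alpha1D skips beside a flanking bin of 20 counts in IFM had up to 1413 reads there.

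The most read events in IFM were a skip in blw with 28196 and 66838 reads against 497 and 672, which did not differ relative to its locus (0.57 ± 0.32, adjusted p = 0.196), a skip in Mhc with 24822 and 62708 reads against 25 and 6 (5.33 ± 0.60) and one in Act88F with 17973 and 45470 against 36 and 22 (1.31 ± 0.34). In brain the most read was a skip in up with 3225 and 3267 reads, which had 10481 and 22935 in IFM and was lower there only relative to the locus (-1.71 ± 0.29). Next came 1 pair of coordinates in RpS3A, listed under 2 types (skip and alternative acceptor). It had 2619 and 2785 reads in brain and 3814 and 5553 in IFM (-1.80 ± 0.31 relative to the locus). For the Act88F event the locus-relative call was lost with the replicate block (adjusted p = 0.085). It was also lost with total event reads as the only scaling (0.15, adjusted p = 0.674) and at a minimum of 150 reads (0.49, adjusted p = 0.255). The locus-relative calls of the events in Act88F, up and RpS3A were lost without IFM replicate 1 (adjusted p = 0.0682, 0.111 and 0.0765) and without IFM replicate 2 (adjusted p = 0.218, 0.0683 and 0.0838).

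An exon skip in its usual form joins the ends of 2 annotated exons, so its reads can be set beside the counts of the bins that it joins. A flanking bin was found for 2844 of 3105 skips with at least 150 reads in IFM and for 1246 of 1350 in brain. For the 2844 skips in IFM the median ratio of reads to the less counted flanking bin was 0.0871, and for the 1246 in brain it was 0.126. In 231 of the IFM skips (8.12%) the reads exceeded that bin by more than 2 times, in 86 by more than 10 times, and these 231 skips held 15.6% of the reads. In brain 35 skips (2.81%) did so and held 2.87% of the reads. The skip in Mhc described first is among them. It had 59748 reads in IFM, while bin 9, which ends at its left position, had 676 counts there and 13834 in brain, where the event had no read. Its 59748 reads were therefore not matched by counts of the exon that it leaves. In wupA a skip at X:18106931-18114606 had 43410 reads in IFM beside 2604 counts in its right bin. How reads were assigned between the methods was not tested.

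**Figure D5:**
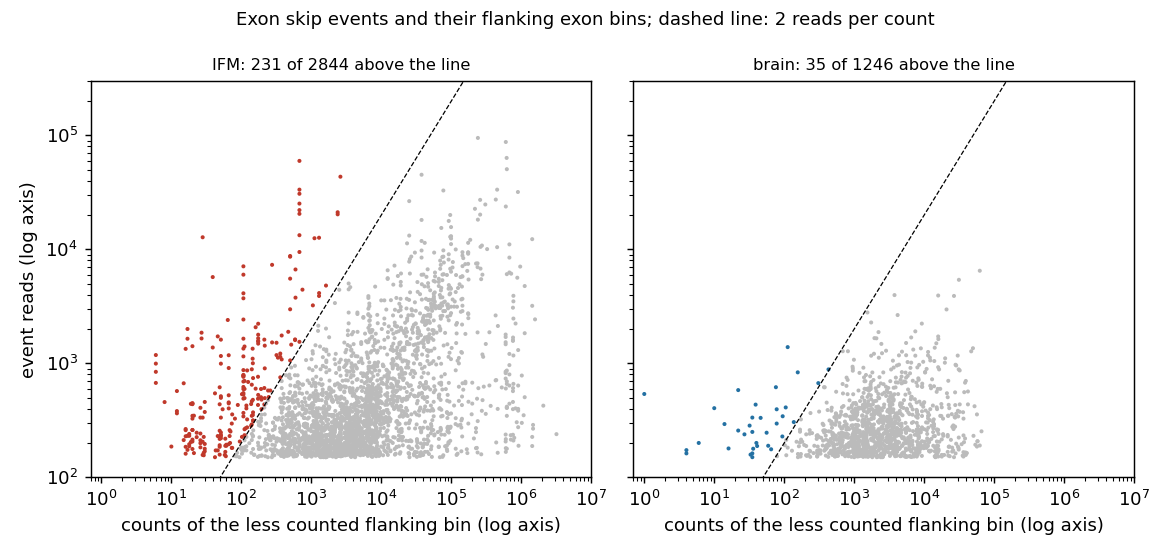
Reads of each exon skip with at least 150 reads against the counts of its less counted flanking exon bin, both on log axes, for IFM and brain, with a dashed line at 2 times. In IFM 231 of 2844 skips lie above the line and in brain 35 of 1246.

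Exon skips were the most frequent event type in every library. They made up 86.6 and 85.5% of the 60050 and 70410 events in the IFM libraries and 83.6 and 83.7% of the 58687 and 52054 events in the brain libraries. Alternative acceptors made up 3.32 and 3.55% in IFM and 4.20 and 4.22% in brain, and alternative donors 3.91 and 4.01% against 4.74 and 4.77%. Intron retention made up 1.93 and 2.09% against 1.85 and 1.82%, but among events with at least 10 reads 0.463 and 0.598% against 0.622 and 0.599%, the opposite direction. Each of these shares over all events was separate between the tissues, with a two-sided exact permutation p of 0.333, the smallest that 2 against 2 libraries allow.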

How the data were processed

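The authors mapped reads to BDGP6 (per the labels with STAR 2.7.3a, SAMtools 1.1, featureCounts of Subread 2.0.0 and DESeq2 1.32.0) and deposited raw read counts for each DEXSeq exon bin, a normalised mean signal for each gene and raw fortuna read counts for each event. The counter behind the bins, its strand setting and the DEXSeq version are not given in the sources used here. The paper calls the libraries stranded. The deposited gene signal is a mean over 4 libraries divided by size factors, and mean gene CPM followed it with a Spearman correlation of 0.964 across 11794 genes. The authors' own fold changes and p-values were not used.

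Bin counts were summed for each gene, and 14 bins given to 2 genes were left out. The share of counts in the 1 bin that names no gene was 1.02e-05%. Genes, bins and events were tested with edgeR 4.0.16 in R 4.3.3 (TMM, filterByExpr for genes and bins, glmQLFit and glmQLFTest, diffSpliceDGE for exon use), with tissue as the only factor and Benjamini-Hochberg adjustment over all features. Events needed 50 reads in all. The locus offset was the gene's CPM plus 0.1, taken as known. Alternatives were DESeq2, total-count scaling, other filters, each library left out, the leg libraries included, a test against a 2-fold change and, for events, a replicate block. Floors are 3 counts over a group and cover counting error only. Each test was checked on simulated counts with planted changes. Of 2-fold changes 19.4% were recovered for genes, 4.48% for exon use, 0% for events and 0% for events relative to the locus. Of 4-fold changes the shares were 70.1, 56.7, 13.4 and 1.49%. A feature that did not pass may therefore still differ.

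Members and lists were chosen with earlier results of these data known. Named were the 10 genes per direction with the largest change at a mean of at least 50 CPM and no overlap, the 4 most expressed of each list, regulators, 8 bins and 5 events per direction and the 3 most read events of each tissue. Gene positions and features are those of Ensembl BDGP6.54. Libraries of one tissue differed beyond sampling noise (mean chi-square of a gene 995 in IFM and 178 in brain). DESeq2 1.42.0, Python 3.11.15, pandas 2.3.3, numpy 2.4.6, scipy 1.17.1, matplotlib 3.10.9 and bedtools 2.31.1 were also used. Genes without bins in the exon table, such as elav and Actn, were not analysed here.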

Additional observations from a re-analysis of the deposited data

How the results depend on the processing

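Direction and call were kept under every alternative run by 113 named genes, 13 named bins, 13 named events and 12 events relative to the locus, out of 153, 16, 15 and 15. With a test against a 2-fold change 2465 genes were higher in brain. With total counts as the only scaling 2461 genes were higher in IFM and 6954 in brain, and 11 named genes changed direction, namely RpL5 (-0.83), RpL7A (-0.0299), Nrg (-0.99), sm (-1.06), sqd (-0.66), how (-0.0725), qkr58E-2 (-1.16), Hrb87F (-1.03), hth (-0.89), fru (-0.67) and shot (-0.35). The DEXSeq model fitted with DESeq2 called 7204 bins used more in IFM and 8103 more in brain, and the cause was not tested. DESeq2 called 4394 and 3709 genes. Leaving out 1 library gave between 3502 and 3815 genes higher in IFM and between 3003 and 3614 higher in brain, and between 785 and 1453 bins used more in IFM and between 1377 and 2091 more in brain. With bins that overlap another gene left out, chosen after seeing the data, 3765 and 3528 of 11100 genes were called. Depth limits which events can be tested, and a minimum of 10 reads gave 9648 and 9334 events and of 150 reads 2726 and 1782. Relative to the locus these minimums gave 3576 and 661 events higher in IFM and 2065 and 1785 in brain, total event reads as the only scaling gave 825 and 4590, and leaving out 1 library gave between 292 and 2115 higher in IFM and between 469 and 2426 higher in brain. Among events with at least 10 reads, type shares in IFM and brain were 2.67 and 3.62% for alternative acceptors, 3.70 and 4.43% for donors, 0.912 and 1.25% for pairs of both, 90.7 and 88.1% for skips, 1.502 and 2.00% for introns in exons, 0.531 and 0.611% for retention and 0.0134 and 0.0394% for the remainder.

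With the replicate number as a block, 5441 and 4487 events were higher in IFM and brain, and relative to the locus 1743 and 1925. The correlation of same-numbered deviations across events was 0.0235. With 2 libraries in each tissue this value cannot show whether the numbers pair the tissues. For genes and exon use no such block was possible. The columns of the exon table, from which they were computed, are not tied to the replicate numbers of the labels.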

Other observations

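Transcripts known from sperm and testis were present in the IFM libraries. All 8 markers of this list were higher in IFM, against 34.0% of all genes. In sum they had 332 and 139 CPM in IFM against 6.10 and 3.64 CPM in brain. The marker sa was at 0 in both brain libraries. Mst98Ca had 83.3 and 37.2 CPM in IFM and 0.643 and 0.198 CPM in brain (7.16 ± 0.65), dj 63.8 and 23.8 CPM and 0.352 and 0.243 CPM (7.20 ± 0.58) and the testis tubulin betaTub85D 111 and 45.2 CPM and 3.13 and 1.86 CPM (4.97 ± 0.49). Second copies of ribosomal and mitochondrial genes stood at a few CPM in IFM and near 0 in brain, for example RpL22-like, known from the germline, with 3.52 and 3.26 CPM against 0.0176 and 0 CPM (8.58 ± 0.93), RpL10Aa with 10.2 and 3.49 CPM against 0.0176 and 0.0360 CPM (7.99 ± 0.81) and ATPsynbetaL with 2.31 and 2.26 CPM against 0.0264 and 0.0180 CPM (6.68 ± 0.72). The ribosomal copies among them hold the largest differences of the ribosomal list at very low levels, and all were named after their values were seen. In brain RpL22-like lay below the floor of 3 counts over the group, so the size of its difference is uncertain. All these values come from 2 libraries of a tissue, and the part of other tissue in them was not tested.

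Tubulins differed by gene. betaTub97EF had 483 and 572 CPM in IFM against 37.8 and 51.4 CPM in brain (3.56 ± 0.29) and betaTub60D 408 and 172 CPM against 13.6 and 14.7 CPM (4.36 ± 0.43), though all counts of betaTub60D lie in bins shared with another gene. alphaTub84B had 747 and 379 CPM and 594 and 667 CPM (-0.16 ± 0.36, adjusted p = 0.708), and betaTub56D 321 and 192 CPM and 397 and 503 CPM (-0.81 ± 0.32, adjusted p = 0.0513). These tubulins were named after their values were seen. Of 117124 pairs of event coordinates, 4702 were entered under more than 1 type. Among events with at least 150 reads in a tissue, 41 in IFM and 18 in brain had no read in 1 of its libraries.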
